A study of Homo sapiens with 9 samples.

Results

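The sites described here are 4586 p65 binding sites in 786-O cells that coincided with TEAD and lost their p65 peak in both treatments of the study. They were chosen from the 15432 control p65 peaks on chromosomes 1 to 22 and X. A site was taken when it overlapped a vehicle p65 peak and a TEAD peak by 1 bp or more, and no part of it lay in a p65 peak of the list labelled siTEAD4 or of the XMU-MP-1 list. The choice rests on these 5 lists themselves, so strength, length and presence in them are given as descriptions, with no test. A site without a called peak in a treated list is called lost, which says nothing of the signal below the calling threshold.

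The 786-O line is an established human clear cell renal carcinoma line, and all groups are cultures of it. The study labels 9 ChIP-seq libraries, 1 per condition, of which 4 are input chromatin. The 5 immunoprecipitates are p65 in cells labelled siTEAD4, p65 in cells treated with XMU-MP-1, p65 in control cells with no treatment named, p65 in vehicle cells, and TEAD in cells treated with XMU-MP-1. The label naming the small interfering RNA reads siTEAD4 in the title and siTEAD in the treatment field, and the peak names of that list carry a further name, p65_Vert, which no label explains. TEAD was thus read in XMU-MP-1 cells only, and the TEAD protein recognised by the antibody is not named. Doses and treatment times are not stated in the labels. Since every condition is a single library, differences between conditions could not be checked against replicates and carry no p-value. Shares carry 95% Wilson intervals, which reflect counting error alone and take peaks as independent of each other.

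p65, the RELA protein, is the transactivating subunit of NF-κB. It is held in the cytoplasm by IκB proteins and enters the nucleus when they are degraded, where it binds κB elements at genes of inflammation, survival and feedback control. TEAD proteins are the DNA-binding partners of YAP and TAZ, and they are known to sit largely at distal enhancers, often beside AP-1. The Hippo kinases MST1 and MST2 lead through LATS kinases to the phosphorylation of YAP and its exclusion from the nucleus, and XMU-MP-1 inhibits MST1 and MST2.

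The selection narrowed in 3 steps. Of the 15432 control peaks, 12268 (79.5%) had a vehicle peak. Of these, 6135 (50.01%, 49.1 to 50.9) had a TEAD peak. Of the 6135 sites with TEAD and with p65 in both baseline lists, control and vehicle, 4586 (74.8%, 73.6 to 75.8) were lost in both treated p65 lists. The remainder comprised 902 sites kept in both treated lists (14.7%, 13.8 to 15.6), 352 with a peak labelled siTEAD4 alone and 295 with an XMU-MP-1 p65 peak alone. For the background, 88.8% of all control peaks had no peak in the list labelled siTEAD4, 89.8% had none in the XMU-MP-1 list and 86.3% had none in either. Among the 12268 control peaks with a vehicle peak, 83% had neither. Of all control peaks, 47.5% had a TEAD peak. The choice of sites used these same overlaps, so these shares, and the shares lost by p65 or TEAD strength given further on, describe the lists and are no test of a difference between conditions.

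Loss in both treated lists was the usual outcome at sites with p65 alone as well, and its share was higher there. Of 6133 control and vehicle sites without a TEAD peak, 5593 (91.2%, 90.5 to 91.9) were lost in both. The share was thus 16.4 percentage points lower with a TEAD peak than without. At the same deciles of control fold it was 74.5% with and 91.1% without TEAD, a difference of 16.5 points. Equal fold does not equalise peak length or local background. Among lost sites both had higher medians with TEAD than without, and their part in the difference was not tested. The sites described here made up 45.1% (44.1 to 46.0) of the 10179 control and vehicle sites lost in both lists.

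The lost p65 plus TEAD sites were of about the strength of an average control p65 peak. Fold enrichment is the pileup of fragments at the summit over the local background used for that list. Whether this background was taken from the input library is not stated in the sources used here. Over the lost sites, fold had a median of 5.81 in the control list, with an interquartile range of 4.66 to 7.37 and extremes of 1.95 and 27.0. In the vehicle list the same sites had a median fold of 6.06 (4.87 to 7.86), with extremes of 2.32 and 28.5. The quartiles of the 2 lists thus lay close together. Ranges in parentheses after a median are interquartile ranges throughout. The number of fragments at the summit, recovered from fold and p-value, had a median of 35 for the control and 20 for the vehicle library. Sites resting on 20 fragments have a wide counting error, and the folds of single sites are correspondingly uncertain.

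Sites with p65 and TEAD that were kept in both treated lists stood higher on the same scale. Their median fold was 13.2 (9.17 to 18.6) among control peaks and 14.5 (10.1 to 20.4) among vehicle peaks. Only 129 of the 4586 lost sites (2.81%) reached the median control fold of the kept sites, and 60 of the 902 kept sites (6.65%) were at or below the median of the lost ones. The extremes nevertheless overlapped, since the weakest kept site had a control fold of 2.85 and the strongest lost site 27.0. The interquartile ranges did not overlap in either baseline list. In the 902 kept sites, the surviving peaks had a median fold of 5.95 (4.64 to 7.80) in the list labelled siTEAD4 and 6.72 (5.22 to 8.79) in the XMU-MP-1 list. Each fold is relative to the background used for its own list, so these values show no change between lists.

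**Figure D1:**
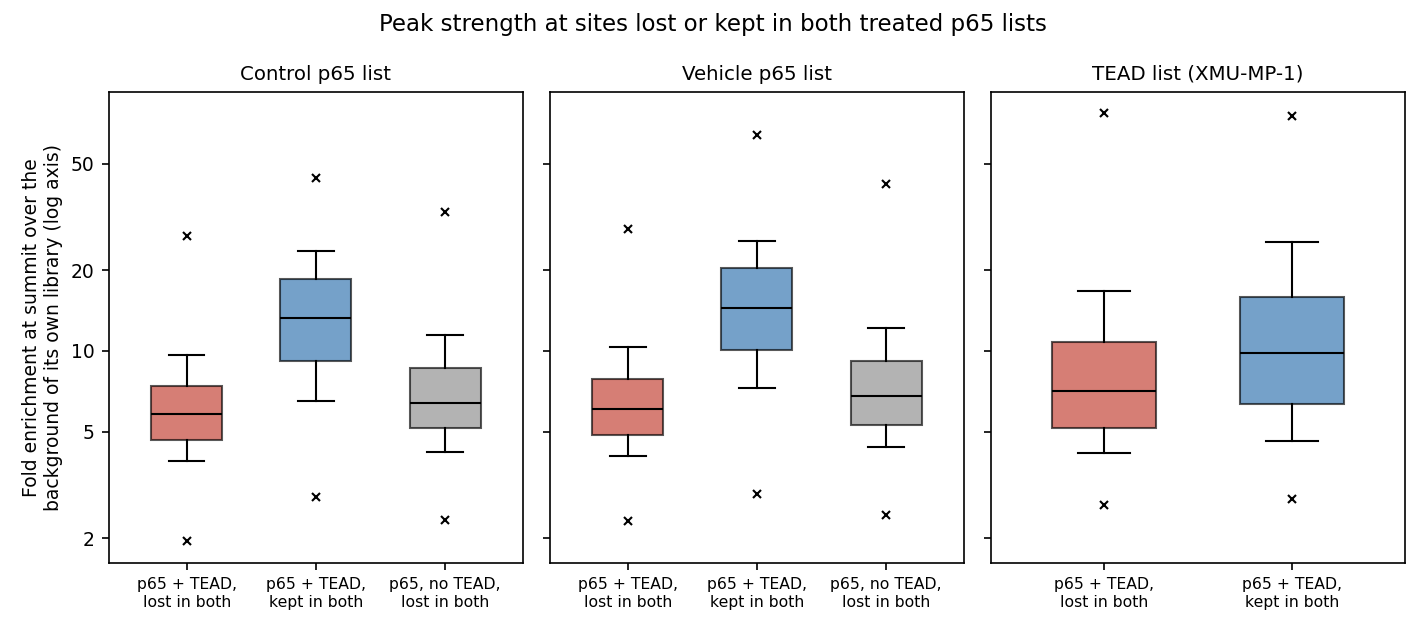
Fold enrichment (log axis) of p65 plus TEAD sites lost in both treated lists (n = 4586), p65 plus TEAD sites kept in both (n = 902) and p65 sites without TEAD lost in both (n = 5593), in the control p65, vehicle p65 and TEAD lists. Boxes span the quartiles with the median as a line, whiskers reach the 10th and 90th percentiles and crosses mark the extremes; the lost sites with TEAD have the lowest median p65 fold of the 3 groups in both baseline lists, 5.81 and 6.06.

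Lost sites without TEAD were slightly stronger and shorter than those with TEAD. The median control fold was 5.81 at lost sites with TEAD and 6.40 (5.14 to 8.64) at lost sites without it, and the median vehicle fold was 6.06 and 6.78 in the same order. Control peaks were nonetheless longer at the sites with TEAD, with a median of 320 bp (252 to 410) against 295 bp (241 to 365) without. The difference in length was present at equal strength: in the fifth decile of control fold the medians were 284.5 bp with and 260 bp without TEAD, and in the ninth decile 420 bp and 356 bp. The groups were split by overlap of the control peak with a TEAD peak, which by itself favours longer control peaks with TEAD. The part of this choice in the difference was not tested. Local background at the summit was also higher with TEAD, with a median of 2.77 fragments after scaling against 2.22 without.

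The lost p65 plus TEAD sites were spread over the whole range of the control list, with 53.5% (52.1 to 54.95) of them in its 5 weaker deciles of fold. Their median control fold of 5.81 was close to the 5.97 of all control peaks. Each of the 7 lowest deciles of control fold held between 450 and 576 of them, the eighth held 484, the ninth 369 and the strongest 173 (3.77%, 3.26 to 4.36). Of the 4586 sites, 92 lay in the strongest decile of both baseline lists. The share lost among sites with a TEAD peak was 92.7% (90.3 to 94.6) in the weakest decile, 89.6% (86.8 to 91.8) in the fifth decile, 54.7% (50.97 to 58.5) in the ninth and 21.0% (18.3 to 23.9) in the strongest. Without a TEAD peak the shares were 98.8% (97.3 to 99.5), 98.3% (96.9 to 99.1), 87.4% (85.1 to 89.5) and 56.9% (53.2 to 60.5) in the same deciles. The share lost was lower with TEAD in all 10 deciles, and the gap was widest in the strongest one.

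**Figure D2:**
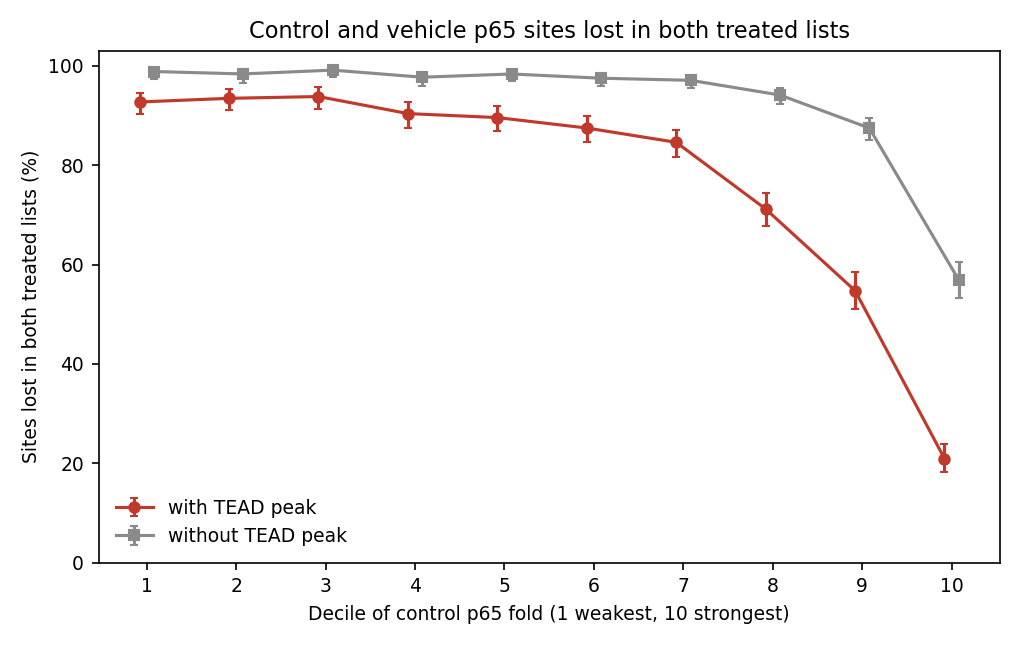
Share of control and vehicle p65 sites lost in both treated lists (%) by decile of control p65 fold, with a TEAD peak (circles) and without one (squares). Bars are 95% Wilson intervals; the shares with TEAD run from 92.7% in the weakest decile to 21.0% in the strongest, against 98.8% and 56.9% without TEAD.

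The 10 lost sites with the highest control fold were strong p65 peaks beside modest TEAD peaks. Their control folds ran from 19.7 to 27.0 and their vehicle folds from 11.6 to 23.7. The TEAD folds of the same sites ran from 3.16 to 11.5, with a median of 5.04, which is below the median of 7.06 over all lost sites. The first lay on chromosome 17 from 7747106 to 7747653 (hg19, as are all positions), with p65 folds of 27.0 (control) and 18.2 (vehicle) beside 4.48 for TEAD. The p65 summit of this site rested on 108 control and 56 vehicle fragments. Its nearest treated p65 peak began 844 bp away.

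The next site by control fold, on chromosome 7 from 75368253 to 75369029, reached p65 folds of 22.5 (control) and 12.6 (vehicle) beside 4.86 for TEAD, and its nearest treated p65 peak was 36803 bp away. A site on chromosome 2, spanning 236476520 to 236476936, reached 21.9 and 14.5 in the same p65 lists, with TEAD at 5.48. On chromosome 1, positions 29211443 to 29211943 gave p65 folds of 20.6 and 20.1, with TEAD at 5.22. This last site had nearly the same fold in both baseline libraries and no treated p65 peak for 235929 bp. In 9 of the 10 the TEAD summit lay 3 to 90 bp from the p65 summit; the exception, on chromosome 19 from 50143332 to 50144040, had its TEAD summit 593 bp away and the highest TEAD fold of the 10, 11.5.

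Some lost sites had a much higher fold in the vehicle than in the control list. Fold depends on the local background as well as on the fragments at the summit. The highest vehicle fold, 28.5, was on chromosome 15 from 102119862 to 102120472, where the control fold was 13.9. Its summit rested on 72 vehicle and 117 control fragments. A site on chromosome 9, spanning 132835102 to 132835565, reached 22.3 in the vehicle but 5.44 in the control list. Its summit rested on 67 vehicle and 91 control fragments. On chromosome 1, positions 37942027 to 37942532 gave 26.1 (vehicle) and 9.48 (control), on 91 and 53 fragments. A peak of the list labelled siTEAD4 began 222 bp away from this site. These examples show how far the fold of 1 site differed between libraries without siTEAD4 or XMU-MP-1. Across the 4586 sites, control and vehicle folds had a Spearman correlation of 0.45, against 0.76 across the 902 kept sites; both values describe sites chosen for being called in both lists.

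By the rule of choice, each of these sites had a TEAD peak and no p65 peak in the lists from XMU-MP-1 cells. TEAD and p65 were read there in separate libraries, and a missing p65 peak is not an absence of p65. The TEAD peaks there were of all strengths, with a median fold of 7.06 (5.15 to 10.8), extremes of 2.67 and 77.1, and they were 427 bp long at the median (312 to 571.75). At p65 plus TEAD sites kept in both treated lists the TEAD fold had a median of 9.84 (6.32 to 15.9) and the TEAD peak a median length of 548.5 bp. TEAD peaks with no p65 peak in any of the 4 p65 lists were weaker and shorter than both, with medians of 5.92 for fold (4.72 to 8.26) and 315 bp for length. Within the TEAD list the peaks at lost sites therefore ranked between those at kept sites and those without p65. The strongest decile of the TEAD list covered 621 of the 4586 lost sites (13.5%, 12.6 to 14.6) and 255 of the 902 kept ones (28.3%, 25.4 to 31.3).

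The strength of TEAD and of p65 were nearly unrelated across the lost sites. Control p65 fold and TEAD fold had a Spearman correlation of -0.04 over the 4586 sites, and vehicle p65 fold and TEAD fold one of -0.04. Across the 902 kept sites these correlations were -0.22 and -0.23. The sites were chosen for having lost p65, and the values are read in separate libraries, with cells, depth and local background shared only in part.

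Among the 10 lost sites with the highest TEAD fold, the TEAD folds ran from 46.6 to 77.1, the control p65 folds from 4.80 to 12.7 and the vehicle p65 folds from 3.58 to 10.02. The highest TEAD fold, 77.1, was on chromosome 19 from 2540693 to 2541138, where the p65 fold was 5.36 (control) and 10.02 (vehicle). A site on chromosome 2, spanning 235905187 to 235905446, combined 70.2 for TEAD with p65 folds of 5.42 (control) and 5.09 (vehicle). This p65 peak of 260 bp lay wholly inside a TEAD peak of 799 bp, with the summits 3 bp apart.

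At 9 of the 10 the control p65 peak was shorter than the TEAD peak, as on chromosome 10 from 21581722 to 21581906, where a control peak of 185 bp with a fold of 4.80 lay in a TEAD peak of 777 bp with a fold of 61.3. The exception was the site with the highest p65 fold among them, on chromosome 6 from 27720680 to 27721370, where the p65 peak was 691 bp and the TEAD peak 657 bp long. It reached 12.7 in the control, 9.59 in the vehicle and 50.3 in the TEAD list. The nearest treated p65 peak of the 10 sites was 14714 bp to 2533064 bp away.

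The share lost was lower at sites with stronger TEAD peaks. Among the 6135 control and vehicle sites with TEAD, the share lost in both treated p65 lists was 83.6% (80.4 to 86.3) in the weakest decile of TEAD fold, 79.0% (75.6 to 82.0) in the fifth decile and 57.0% (53.1 to 60.9) in the strongest. Median control p65 fold was similar across these deciles, between 6.18 and 6.64. Among the 50% of sites with the lower control fold, the share lost was 97.4% (94.96 to 98.7) in the weakest and 75.4% (70.02 to 80.0) in the strongest TEAD decile. Among the 50% with the higher control fold it was 69.6% (64.2 to 74.5) and 41.2% (36.0 to 46.6). The same order was seen at low and at high p65 fold.

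Each treated list showed this order on its own. Between the weakest and the strongest TEAD decile the share without a peak in the list labelled siTEAD4 was 85.7% (82.7 to 88.2) and 66.6% (62.8 to 70.2), and without a peak in the XMU-MP-1 list 87.8% (84.96 to 90.1) and 62.4% (58.5 to 66.1). A smaller difference in the same direction lay between the baseline lists. Of all control peaks with TEAD, 18.7% (16.0 to 21.7) had no vehicle peak in the weakest TEAD decile and 12.6% (10.3 to 15.1) had none in the strongest. These deciles were taken over all 7323 control peaks with TEAD, so their limits differ from those above. The part of this difference between baseline lists in the result was not tested.

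**Figure D3:**
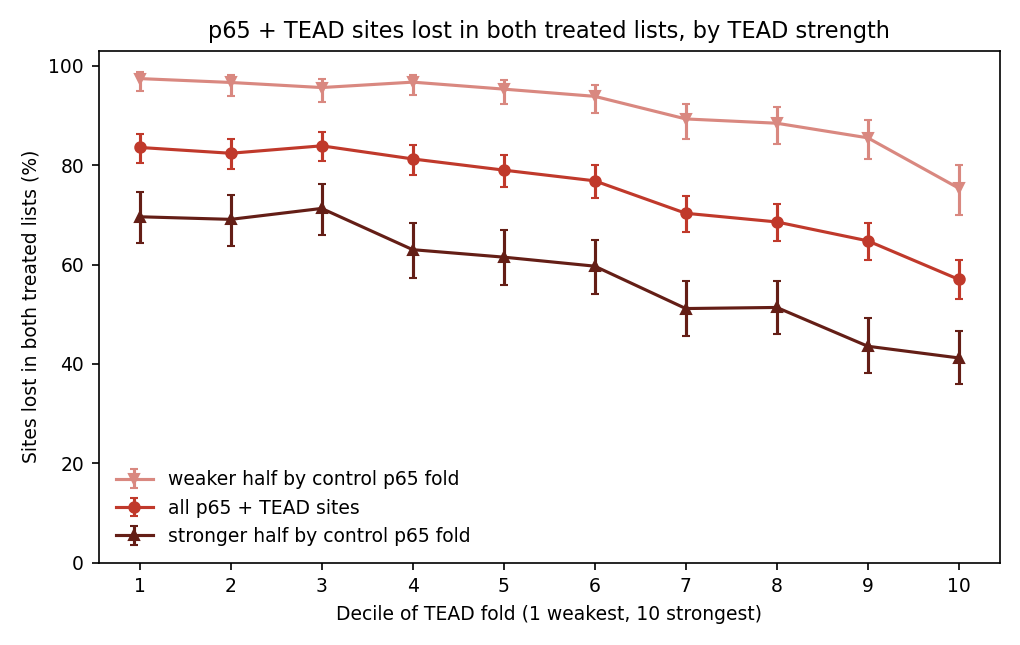
Share of control and vehicle p65 sites with a TEAD peak that were lost in both treated lists (%), by decile of TEAD fold, for all 6135 sites (circles) and for the 50% of sites with lower (down triangles) and higher (up triangles) control p65 fold. Bars are 95% Wilson intervals; over all sites the share is 83.6% in the weakest and 57.0% in the strongest TEAD decile.

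At nearly every lost site 1 p65 peak met 1 TEAD peak. Of the 4586 sites, 4573 (99.7%) overlapped a single TEAD peak and 4560 (99.4%) a single vehicle peak. The sites used 4567 different TEAD peaks, which is 19.5% (19.0 to 20.02) of the TEAD list. Only 33 of these TEAD peaks spanned more than 1 lost site, and 15 spanned both a lost site and a site kept in both treated lists. A lost and a kept p65 peak under the same TEAD peak was thus rare.

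The median distance between the p65 and TEAD summits was the same at lost and kept sites. Both groups were chosen for overlapping p65 and TEAD peaks, which by itself keeps the summits near each other. Peak lengths, which differ between the groups, also limit the distance. The distance had a median of 56 bp at lost sites (26 to 106) and of 56 bp at kept sites (22 to 118). The TEAD summit was within 50 bp of the control p65 summit at 46.4% (44.9 to 47.8) of lost sites and 47.1% (43.9 to 50.4) of kept sites. It lay inside the control p65 peak at 89.2% (88.3 to 90.1) of lost and 96.1% (94.7 to 97.2) of kept sites, whose p65 peaks were longer, with a median of 540 bp. Distances over 200 bp were found at 10.1% (9.22 to 10.96) of lost and 14.6% (12.48 to 17.1) of kept sites. The TEAD summit was at the higher coordinate in 50.4% (48.9 to 51.8) of the lost sites whose summits did not coincide.

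The precision of a summit sets the scale for these distances. The control and vehicle p65 summits of the same lost site were 38 bp apart at the median (17 to 69), and within 50 bp at 62.3% (60.9 to 63.7) of sites. At kept sites they were 21 bp apart and within 50 bp at 80.8% (78.1 to 83.3), and at lost sites without TEAD 29 bp apart and within 50 bp at 72.4% (71.2 to 73.6). The baseline p65 summits thus differed more from each other at lost sites with TEAD than in the other 2 groups. Peak strength and length also differed between the groups, and summits were not compared at equal strength or length. The TEAD peak was the longer of the pair at 70.4% (69.1 to 71.7) of lost sites, and at 45.6% (44.2 to 47.1) it contained the whole control p65 peak.

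**Figure D4:**
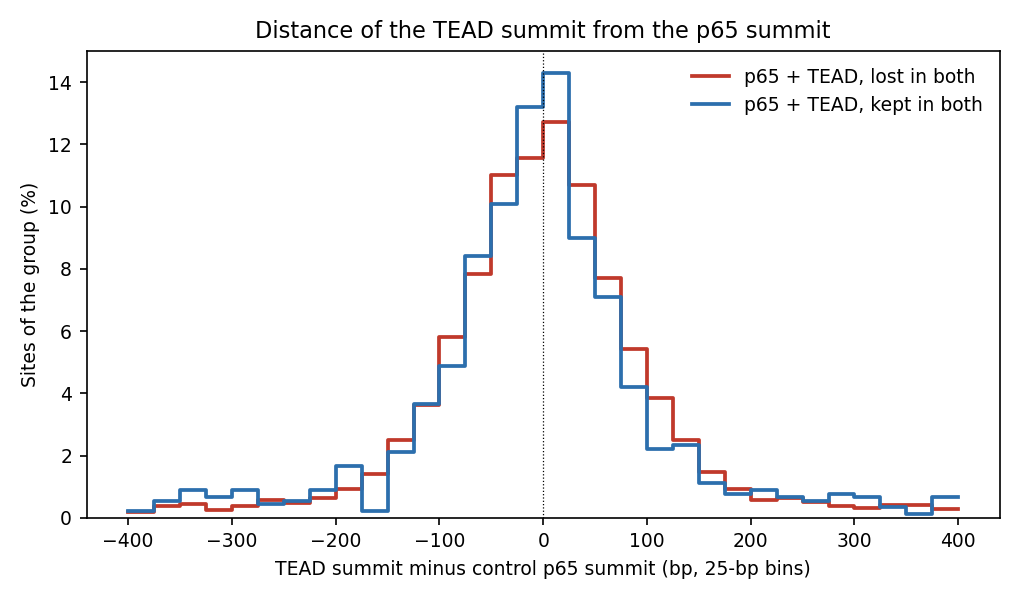
Position of the TEAD summit relative to the control p65 summit (bp, in bins of 25 bp) at p65 plus TEAD sites lost in both treated lists and kept in both, as a share of the sites of each group. Both groups centre on 0 and have a median distance of 56 bp.

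The lost p65 plus TEAD sites lay in neighbourhoods with more p65 and TEAD peaks than lost sites without TEAD. Another control p65 summit was found within 10 kb of 45.1% (43.7 to 46.6) of them, of 59.1% (55.9 to 62.3) of the sites kept in both and of 33.0% (31.7 to 34.2) of the lost sites without TEAD. A further TEAD peak, beyond the one at the site, had its summit within 10 kb of 53.1% (51.6 to 54.5) of lost sites with TEAD, 62.7% (59.5 to 65.8) of kept sites and 34.9% (33.6 to 36.1) of lost sites without TEAD. A surviving p65 peak of either treated list was within 10 kb of 598 lost sites with TEAD (13.0%, 12.1 to 14.0) and of 444 without (7.94%, 7.26 to 8.68). The median distance to the nearest surviving peak was 178 kb (37.5 to 602) with TEAD and 283 kb (76.5 to 767) without. The intervals of these shares reflect counting error alone, and neighbouring peaks are not independent. The groups were themselves defined by overlap with a TEAD peak, so the shares describe the lists and their difference was not tested.

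When lost p65 plus TEAD sites up to 12500 bp apart were joined, 1182 of them (25.8%, 24.5 to 27.1) fell into 527 regions of 2 or more. The regions held 2 sites in 427 cases, 3 in 79, 4 in 16, 5 in 3 and 6 in 2. Kept p65 plus TEAD sites were joined in 19.5% (17.1 to 22.2) of cases, and lost sites without TEAD in 18.0% (17.1 to 19.1). Joining depends on how many sites a group has, and the groups differ in size.

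A region of 25.6 kb on chromosome 8, from 128863797 to 128889378, was among the 2 with 6 lost sites. Their control folds ran from 4.43 to 8.76, their vehicle folds from 4.03 to 9.32 and their TEAD folds from 4.64 to 14.1, the highest belonging to a TEAD peak shared by 2 of them. Among them, 10.1 kb from the centre, lay a p65 peak called in all 5 lists, at 3.74 in the list labelled siTEAD4, 9.30 in the control, 3.93 in the XMU-MP-1, 7.20 in the vehicle and 10.02 in the TEAD list (folds). Its control fold was the highest of the region, while its TEAD fold was exceeded at 4 of the 6 lost sites. Kept and lost sites thus stood within a few kb of each other here.

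The other region with 6 lost sites, on chromosome 17 from 76326901 to 76356526, had no peak in either treated p65 list. It held 7 control, 10 vehicle and 7 TEAD peaks over 29.6 kb. The highest TEAD fold there was 28.8, at a lost site whose p65 folds were 4.83 (control) and 4.16 (vehicle). The next regions by number and summed control fold held 5 lost sites each. On chromosome 1, from 156083916 to 156100373, the control folds of the 5 sites ran from 4.45 to 9.59, and on chromosome 22, from 36746741 to 36771081, from 4.31 to 10.6. Neither held a treated p65 peak. The next, on chromosome 7 from 130578196 to 130590673, held 1 XMU-MP-1 p65 peak, with a fold of 4.90, and none labelled siTEAD4.

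**Figure D5:**
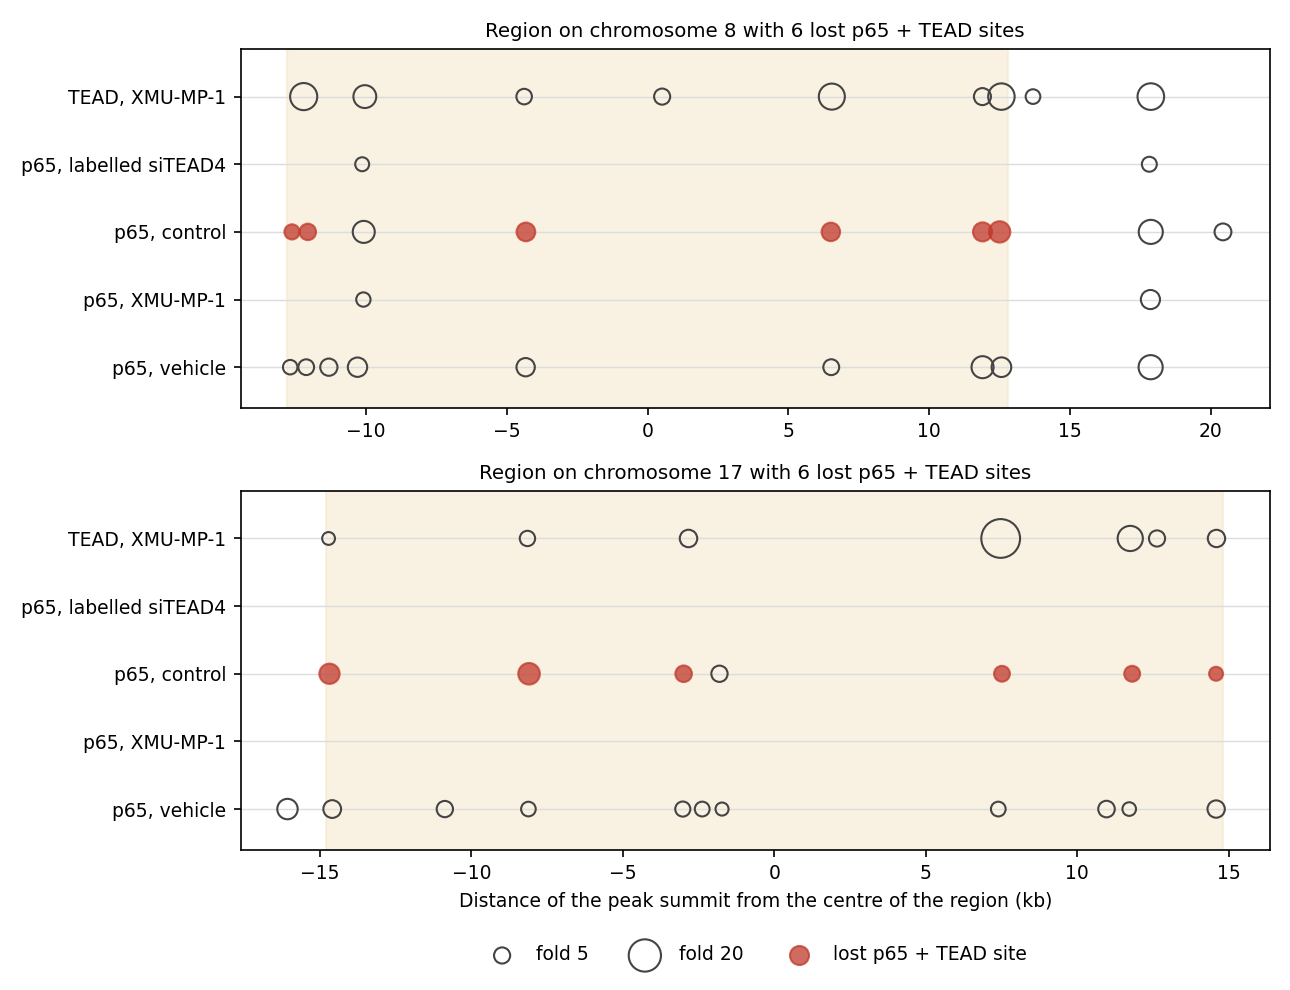
Peaks of the 5 lists in the 2 regions with 6 lost p65 plus TEAD sites, by distance of the summit from the centre of the region (kb); the area of a circle is proportional to fold, filled circles are the lost sites and shading marks the joined region. The region on chromosome 8 holds 1 p65 peak that is present in both treated lists, and the region on chromosome 17 holds none.

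Every chromosome from 1 to 22 and X carried such sites. The share of p65 plus TEAD sites that were lost ranged from 69.1% (63.7 to 74.1) on chromosome 11 to 79.8% (71.3 to 86.3) on chromosome 18. Chromosome 1 had the most, 498 of its 640 p65 plus TEAD sites (77.8%, 74.4 to 80.9). The share on chromosome 5 was 69.7% (64.8 to 74.3). Chromosomes were not tested against each other, and the lowest and highest shares were picked after all had been seen.

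At the edges of the definition a few sites could as well be read the other way. The lost site nearest a treated p65 peak, on chromosome 5 from 11249 to 11444, had a peak labelled siTEAD4 22 bp away and the lowest control fold of all lost sites, 1.95. Within 1000 bp of a treated p65 peak lay 125 lost sites (2.73%, 2.29 to 3.24). Just outside the definition, the control peak on chromosome 11 from 65323287 to 65323699 counted as kept because 9 bp of it lay in a peak labelled siTEAD4. The shortest overlap with a TEAD peak among the lost sites was 7 bp, on chromosome 8 from 23656574 to 23656962, and the lowest control −log10 q-value was 1.33.

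The depth of the treated libraries was set beside these losses by asking which sites would pass the treated lists' thresholds. At the floor of its background, the list labelled siTEAD4 needed at least 11 fragments at a summit and a fold of 3.59, and the XMU-MP-1 list 13 fragments and a fold of 3.95. If the excess of fragments over background, relative to the floor of each library, had been the same as in the control, all 4586 lost sites would have passed in the list labelled siTEAD4. From vehicle to XMU-MP-1, 4583 would have passed. The floors were 2.34 in the list labelled siTEAD4 and 1.83 in the XMU-MP-1 list, against 1.36 for control and 1.25 for vehicle, after scaling. For sites already called at baseline, passing at the full excess was thus close to fixed in advance and says little of depth. With 50% of the excess 3701 (80.7%) and 3138 (68.4%) would have passed in the 2 lists, and with 25% of it 777 (16.9%) and 552 (12.04%). A site with 25% of its baseline excess would thus mostly have been called lost. The calculation ignores sampling: applied from control to vehicle it passes 99.2% of all control peaks, while 79.5% had a vehicle peak.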

How the data were processed

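Chromatin immunoprecipitates of p65 (4 libraries) and TEAD (1) from 786-O cells were each described by 1 list of peaks in narrowPeak format. The submitters' processing notes name fastp, Bowtie2 2.4.5, MACS2 and the build hg19, and give no MACS2 settings in the sources used here. Fixation was with 1% formaldehyde for 10 min and library fragments ranged from 300 to 700 bp, per the labels' protocols. The authors deposited, for each peak, a fold enrichment, −log10 p and −log10 q at the summit, and the summit position. The deposited whole-number score was not used. Peak numbers skip 7 to 147 values per list, so peaks may have been taken out before deposit.

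Overlaps, gaps and summit distances were computed with pandas 2.3.3, scipy 1.17.1 and numpy 2.4.6 under Python 3.11.15, with 1 bp as the smallest overlap. Where a site met several TEAD or vehicle peaks, the one with the nearest summit gave its values. Deciles of control fold were taken over all control peaks, and those of TEAD fold over the 6135 p65 plus TEAD sites. For shares without a vehicle peak, TEAD deciles were taken over all 7323 control peaks with TEAD. The strongest decile of the vehicle or TEAD list was taken over that whole list. The lists give no read totals. Fragments at a summit were solved from fold, (pileup + 1)/(background + 1), and p, the Poisson tail of the pileup; pileups were whole numbers in 3 lists and multiples of 0.587 (control) and 0.783 (XMU-MP-1) in 2, and 99.88% to 100% of peaks gave a −log10 p within 0.005 of the deposited one. The floor of the background is its 1st percentile over the peaks of a list. Regions named are the 10 sites with the highest control fold, the 10 with the highest TEAD fold, 5 others with the highest vehicle fold, the densest joined regions, and sites at the edges of the definition, of which the text gives the leading ones. Overlaps, gaps and pileups were recovered in simulated lists with known answers. Sites were not assigned to genes, and neither motifs nor sequences were read, because no hg19 annotation or genome was used here. The sites, groups and rules were chosen with earlier results of these data known.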

Additional observations from a re-analysis of the deposited data

How the results depend on the processing

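In all, 47 values were recomputed. For 19 the result lay inside the 95% interval of the value given above (for numbers of sites, inside 1.5 times), and for 28 it lay outside. Only the difference in the share lost, with TEAD minus without, could change sign. It was -16.5 points at the same deciles of control fold and kept its sign. Counts, shares, medians and distances cannot be negative. The number of lost p65 plus TEAD sites and its share of control peaks were 2798 and 23.5% with −log10 q of at least 5 in all lists, 1094 and 17.1% at 10, and 2608 and 21.9% with the limit of 5 in the control, vehicle and TEAD lists only. Fewer peaks enter under these limits. At the limits of 5 and 10 the median control fold was 6.52 and 8.55, the vehicle fold 6.89 and 9.06, the TEAD fold 8.01 and 10.3, and the control peak length 353 and 426 bp. The share of control peaks was 28.6% with 50% of the shorter peak covered, 26.1% with summits within 200 bp (median length 314 bp) and 28.9% without sites that have a treated p65 peak within 1000 bp. Chosen after seeing the data were the next 3 settings. With the list labelled siTEAD4 left out, whose peak names carry a name that no label explains, 4938 sites (32.0%) were lost, with a median control fold of 5.94, vehicle fold of 6.18 and length of 327 bp. With the XMU-MP-1 p65 list left out the share was 31.6%, the vehicle fold 6.12 and the length 327 bp. Counted as vehicle peaks the sites were 25.6% of that list. With the vehicle summit, TEAD lay 60 bp away at the median and within 50 bp at 43.3%. For these moves other than those by construction the cause was not tested. Settings planned for gene context and sequence motifs could not be run without an hg19 reference. No paired analysis was possible because there is a single library for every condition.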
